A study of Arabidopsis thaliana with 12 samples.

Results

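The MAP kinase cascade genes examined here are the 20 MAP kinase (MAPK) genes MPK1 to MPK20, the 10 MAPK kinase (MAPKK) genes MKK1 to MKK10 and 7 MAPK kinase kinase (MAPKKK) genes of Arabidopsis thaliana, namely MEKK1, MAPKKK3, MAPKKK5, YDA, ANP1, ANP2 and ANP3. They were chosen by locus identifier and name, and all 37 had a value among the 32627 loci of the array. Leaves came from plants carrying DEX-MKK4DD, a transgene for a constitutively active form of MKK4 whose promoter is switched on by dexamethasone (DEX). The transgene was present in all 4 groups, either in the wild-type accession Col or in the mutant sid2-2, into which it had been crossed. SID2 encodes isochorismate synthase, through which most pathogen-induced salicylic acid (SA) is made. At an age of 4 weeks the plants were infiltrated in the leaf with 2 µM DEX or, as mock, with 0.1% ethanol, and leaves were taken 24 h later. The groups were mock and DEX of Col and mock and DEX of sid2, each with n = 3 biological replicates. Plants treated with DEX that lack the transgene were not analysed here, so an effect of DEX itself and an effect of the induced kinase cannot be told apart.

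A MAPK cascade passes a signal by phosphorylation. An activated MAPKKK phosphorylates a MAPKK, which in turn phosphorylates a MAPK on a threonine and a tyrosine of its activation loop, and the MAPK then phosphorylates enzymes and transcription factors. In leaves, 1 branch runs through MAPKKK3 and MAPKKK5, MKK4 and MKK5 to MPK3 and MPK6, another runs through MEKK1, MKK1 and MKK2 to MPK4, and both are activated when microbes are perceived. The same MKK4, MKK5, MPK3 and MPK6 act below YDA in stomatal development. Transcript levels, which are what the arrays measured, do not show whether a kinase is phosphorylated.

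All levels below are log2 expression levels, and the 3 values of a group are given in the order of replicates 1, 2 and 3. A change is the difference of 2 group means on this scale with its standard error (SE), so that a change of 1 is 2-fold, and p-values come from a limma fit across all loci with Benjamini-Hochberg adjustment. A gene is said to have risen or fallen when its adjusted p was under 0.01, and it is called when in addition its change exceeded 2-fold. Levels of different genes are not compared, because each gene has its own probes. Whether the probes of close relatives such as MKK4 and MKK5 or MPK1 and MPK2 also bind each other's transcripts was not tested.

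The array labelled Col DEX replicate 2 stood apart in the gene that defines the mutant. SID2 (EDS16, AT1G74710) was at 10.36, 9.72 and 10.21 in Col mock, at 12.48, 6.08 and 12.26 in Col DEX, at 6.0, 6.26 and 6.12 in sid2 mock and at 6.11, 6.01 and 6.21 in sid2 DEX. In the array labelled Col DEX replicate 2 the level was thus that of a sid2 array. This array stayed in the group of its label, and values without it are given wherever a result rests on it. Median intensities lay between 255 and 289 over the 12 arrays, with a lower quartile of 4.15 to 4.20 on the log2 scale. The 4 mesophyll markers RBCS1A, LHCB1.3, LHCB2.1 and RCA ranged from 9.82 to 14.42, while the root markers CASP1 and COBL9 and the seed markers CRA1 and OLEO1 lay between 3.29 and 4.72. Of the flower markers, AP1 lay between 3.46 and 4.05 and AG between 5.97 and 8.89. Of the 4 mesophyll markers, 3 were called lower with DEX in Col and 2 in sid2. The arrays measured whole leaves, in which fewer cells of a type and less RNA per cell cannot be told apart.

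Which cascade genes change at the transcript level with DEX in these DEX-MKK4DD plants was examined first. In Col, 10 of the 37 genes were called in DEX against mock, 8 higher and 2 lower. Of these, 8 were called in sid2 as well, 6 higher and 2 lower as in Col, and no further gene was called there. MPK11, MKK4, ANP2, MPK7, MPK2 and MKK2 were higher and MPK12 and ANP3 lower in both backgrounds, and MEKK1 and MPK5 were called in Col alone. Of all loci, 28.7% were called in Col (13.8% higher and 15% lower) and 27.8% in sid2 (13% higher and 14.8% lower). The called shares of the cascade genes, 27.0% and 21.6%, were thus close to or below those of the array as a whole. Leaving out the array labelled Col DEX replicate 2 gave 9 called members in Col, beside 27.7% of all loci.

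Without the fold limit, 19 cascade genes changed in Col, 11 higher and 8 lower, beside 46.5% of all loci (24.7% higher and 21.8% lower). In sid2, 20 changed, 12 higher and 8 lower, beside 45.3% of all loci (23.5% higher and 21.8% lower). Both backgrounds shared 18 of these, each in the same direction. The ranges of mock and DEX did not overlap for 27 members in Col, beside 57.7% of all loci, and for 26 in sid2, beside 60.6% of all loci. Without the array labelled Col DEX replicate 2, 18 members changed in Col, beside 41.1% of all loci. The ranges in Col were then apart for 28 members, beside 62.3% of all loci. The median change of the 37 genes was 0.23 in each background, whereas that of all loci was 0.04.

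**Figure D1:**
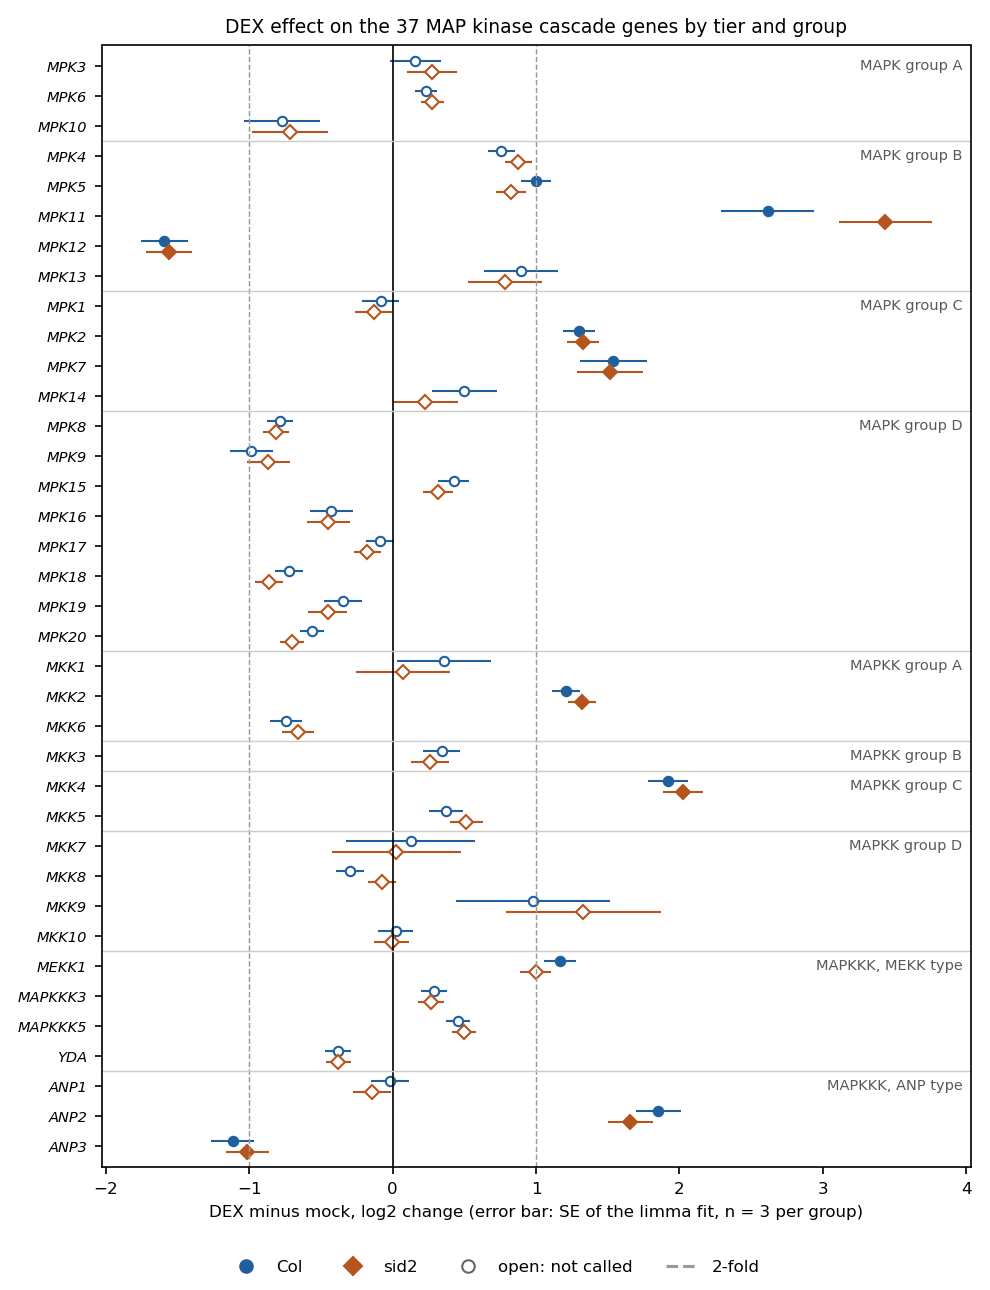
Change of each of the 37 cascade genes with DEX (DEX minus mock, log2) in Col and in sid2, ordered by tier and group, with error bars of 1 SE from the limma fit and n = 3 arrays per group. Filled points are called, dashed lines mark 2-fold, and MPK11 lies farthest to the right with changes of 2.62 and 3.43 while MPK12 lies farthest to the left with -1.59 and -1.56.

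Among the MAPKs, the genes that code for the direct targets of MKK4 changed little. MPK3 (AT3G45640), an immune MAPK that is also needed for stomatal patterning, was at 12.70, 13.00 and 12.16 in Col mock and at 12.92, 12.75 and 12.68 in Col DEX. In sid2 its level was 12.43, 12.83 and 12.29 in mock and 12.83, 12.74 and 12.80 in DEX. Mock and DEX overlapped in both backgrounds, with changes of 0.16 ± 0.18 (SE, adjusted p = 0.482) and 0.27 ± 0.18 (adjusted p = 0.214). The 95% interval ran from -0.23 to 0.55 in Col and from -0.11 to 0.66 in sid2, so a 2-fold change lay outside both. Mock replicate 2 was the highest mock array in each background. In a fit without replicate 2 of all groups, added after the data had been seen, the change in Col was 0.37 (95% interval -0.05 to 0.78).

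MPK6 (AT2G43790), the closest partner of MPK3 in both processes, was at 12.20, 12.26 and 12.34 in Col mock and at 12.44, 12.57 and 12.47 in Col DEX. Its sid2 values were 12.07, 12.12 and 12.00 in mock and 12.36, 12.34 and 12.32 in DEX. All DEX arrays were above all mock arrays of the same background, but by small amounts. The change was 0.28 ± 0.08 in sid2 (SE, adjusted p = 0.00972), just past the threshold, and 0.23 ± 0.08 in Col (adjusted p = 0.0242), which missed it. MPK10, the third gene of group A, had a low level between 4.60 and 6.45 and changes of -0.77 in Col (adjusted p = 0.029) and -0.71 in sid2 (adjusted p = 0.0412), neither past the threshold. No gene of group A was called in either background.

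Group B, which holds MPK4 and its relatives, contained the gene with the largest rise of all 37. MPK11 (AT1G01560) encodes the closest relative of MPK4 and is, like it, activated by bacterial flagellin. Its level was 9.03, 10.27 and 8.81 in Col mock and 12.20, 11.66 and 12.09 in Col DEX. In sid2 it was 7.57, 8.55 and 7.92 in mock and 11.34, 11.63 and 11.38 in DEX. Every DEX array exceeded every mock array, and mock replicate 2 was the highest mock array of either background. The rise was 2.62 ± 0.32 in Col (SE, 6.13-fold, adjusted p = 3.31e-05) and 3.43 ± 0.32 in sid2 (10.8-fold, adjusted p = 3.94e-06). When the array labelled Col DEX replicate 2 was left out, the rise in Col was 2.90.

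MPK4 (AT4G01370), whose loss leads to constitutive defence and high SA, rose without reaching 2-fold. It was at 12.42, 12.44 and 12.40 in Col mock, 13.08, 13.25 and 13.21 in Col DEX, 11.98, 11.97 and 12.11 in sid2 mock and 12.69, 12.96 and 13.04 in sid2 DEX. The replicates of a group lay close together, and mock and DEX did not overlap. The rise was 0.76 ± 0.10 in Col (SE, adjusted p = 3.75e-05) and 0.88 ± 0.10 in sid2 (adjusted p = 1.23e-05).

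MPK5 (AT4G11330), of which little is known, was at 10.51, 10.47 and 10.05 in Col mock and 11.38, 11.39 and 11.27 in Col DEX. In sid2 it was at 10.58, 10.52 and 10.51 in mock and 11.41, 11.37 and 11.32 in DEX. It rose in both, with a change of 1.003 ± 0.105 in Col (SE, adjusted p = 8.68e-06) and of 0.83 ± 0.10 in sid2 (adjusted p = 4.21e-05). The call in Col stood at the 2-fold limit and was lost without the array labelled Col DEX replicate 2 (change 0.99) and without Col mock replicate 3 (change 0.87). It was also lost with quantile normalization (0.98), an offset of 16 on the intensities (0.99) and array quality weights (0.92).

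MPK12 (AT2G46070), a MAPK expressed mainly in guard cells, where it acts in stomatal responses to CO2 and abscisic acid, fell the most. It was at 11.68, 11.09 and 11.83 in Col mock and at 10.04, 9.88 and 9.90 in Col DEX. The sid2 levels were 11.58, 11.26 and 11.75 in mock and 10.07, 9.96 and 9.89 in DEX. The DEX arrays were below the mock arrays by over 1 log2 unit in every same-numbered pair. The change was -1.59 ± 0.16 in Col (SE, 3.01-fold lower, adjusted p = 6.57e-06) and -1.56 ± 0.16 in sid2 (2.95-fold lower, adjusted p = 8.22e-06). Of 4 guard cell markers, MYB60 was called lower in both backgrounds and KAT1 in sid2 alone, HT1 fell by 0.56 and 0.57, and FAMA, at 10.19 to 10.80, had changes of 0.15 and 0.29 that missed the threshold. The summed log2 level of the 4 markers was 36.9 to 38.9 in Col mock, 33.8 to 35.5 in Col DEX, 37.6 to 38.7 in sid2 mock and 34.8 to 35.1 in sid2 DEX, and its part in the fall of MPK12 was not tested. MPK13, the last gene of group B, a MAPK activated by MKK6, had changes of 0.89 (adjusted p = 0.0118) and 0.78 (adjusted p = 0.0239), neither past the threshold, and its change in Col was 0.61 when the array labelled Col DEX replicate 2 was left out (adjusted p = 0.0556). Its change in Col was called without Col mock replicate 1 (1.19), with the arrays scaled to a common median (1.002) and with quantile normalization (1.001).

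Group C encodes MAPKs that MKK3 activates, among other cues in abscisic acid signaling. Of its 4 genes, 2 were called higher in both backgrounds and 2 did not change. MPK7 (AT2G18170) was at 10.50, 11.26 and 10.77 in Col mock and 12.49, 12.28 and 12.38 in Col DEX, and at 10.43, 11.30 and 10.34 in sid2 mock and 12.31, 12.07 and 12.24 in sid2 DEX. Mock replicate 2 was again the highest mock array in each background, yet below every DEX array. The rise was 1.54 ± 0.23 in Col (SE, 2.91-fold, adjusted p = 0.000155) and 1.52 ± 0.23 in sid2 (2.86-fold, adjusted p = 0.00018).

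MPK2 (AT1G59580) was at 10.08, 10.33 and 10.17 in Col mock, 11.40, 11.43 and 11.66 in Col DEX, 9.84, 10.16 and 9.84 in sid2 mock and 11.25, 11.21 and 11.38 in sid2 DEX. DEX raised it by 1.301 ± 0.113 in Col (SE, 2.46-fold, adjusted p = 1.89e-06) and by 1.33 ± 0.11 in sid2 (2.51-fold, adjusted p = 1.72e-06). MPK1, its closest relative by sequence, overlapped between mock and DEX in both backgrounds, with changes of -0.08 ± 0.13 (adjusted p = 0.619) and -0.13 ± 0.13 (adjusted p = 0.424). MPK14 was at a low level, 5.45 to 6.52 over the 12 arrays, with changes of 0.50 (adjusted p = 0.0851) and 0.23 (adjusted p = 0.433).

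The 8 genes of group D, whose MAPKs carry TDY in place of TEY in the activation loop, held no called gene in either background. In Col, 4 of them fell and 1 rose, and in sid2 the same 4 fell. MPK8, a MAPK linked to the wound response, fell by 0.79 and 0.81 in Col and sid2, MPK18, which acts on cortical microtubules, fell by 0.72 and 0.86, and MPK20 fell by 0.57 and 0.70. MPK9, which acts with MPK12 in guard cells, had a change of -0.98 ± 0.15 in Col (SE, adjusted p = 0.000186) and -0.87 ± 0.15 in sid2 (adjusted p = 0.000494), a fall in both. In Col it stood just inside the 2-fold limit and was called without Col DEX replicate 1 (change -1.04) or Col mock replicate 3 (change -1.13), and with quantile normalization (-1.02) or array quality weights (-1.11). Of the guard cell markers given beside MPK12, MYB60 and HT1 fell in both backgrounds, KAT1 fell in sid2 alone and FAMA in neither, and their part in the change of MPK9 was not tested. MPK15 rose by 0.42 in Col (adjusted p = 0.00478) and had a change of 0.31 in sid2 that missed the threshold (adjusted p = 0.0252). MPK16, MPK17 and MPK19 had changes between -0.45 and -0.09 that missed it in both backgrounds.

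**Figure D2:**
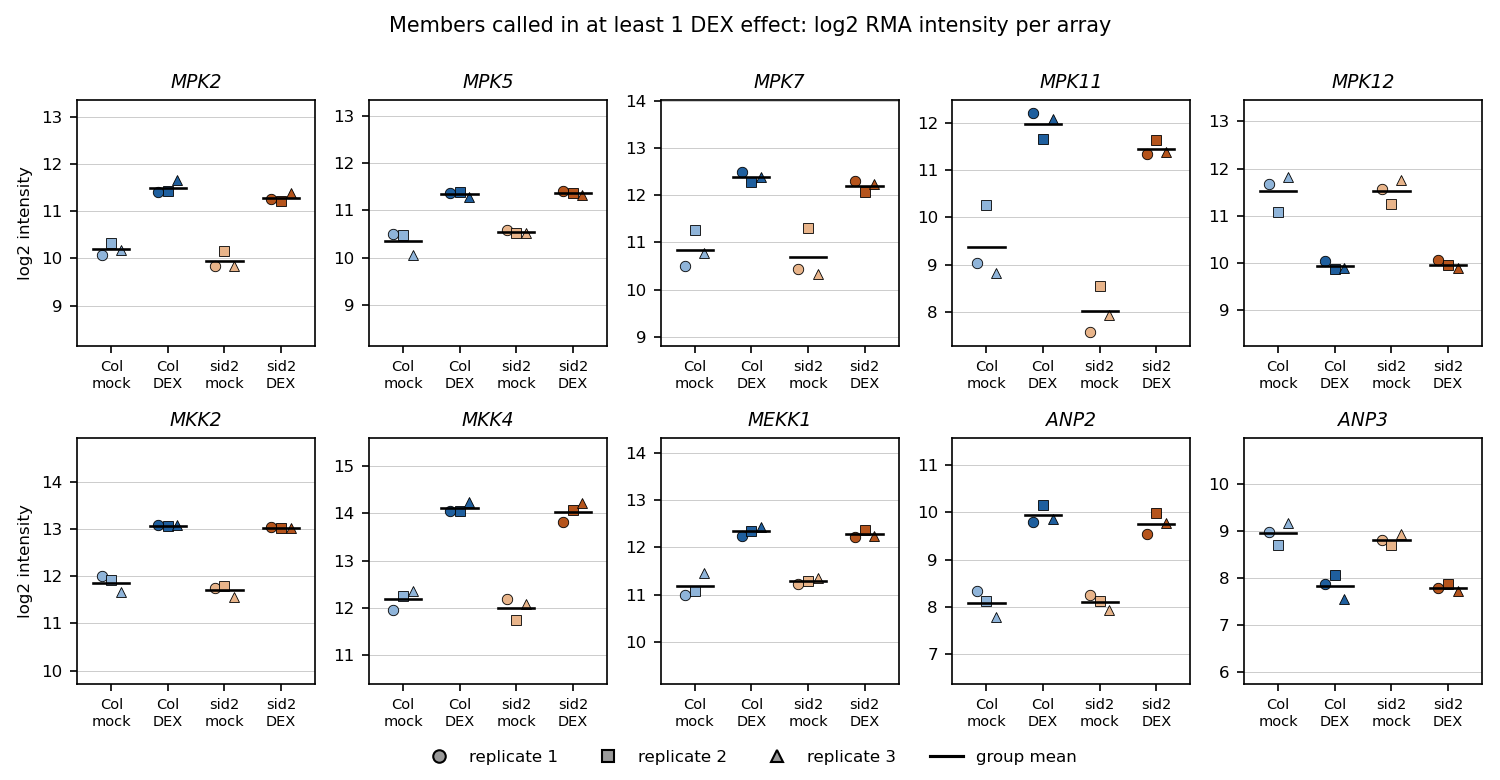
Log2 expression level of the 10 cascade genes called in at least 1 background, 1 panel per gene, with 1 point per array labelled by replicate number and the group mean as a bar, for mock and DEX of Col and of sid2. Every panel spans the same number of log2 units, and mock and DEX do not overlap within a background in any panel.

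At the MAPKK tier, MKK4 (AT1G51660) served as the check of the transgene, though the locus value does not separate the transcript of the transgene from that of the endogenous gene. It was at 11.95, 12.25 and 12.36 in Col mock and at 14.04, 14.05 and 14.23 in Col DEX. In sid2 it was at 12.19, 11.75 and 12.07 in mock and 13.82, 14.06 and 14.22 in DEX. The array labelled Col DEX replicate 2 was as high as the other DEX arrays. The rise was 1.92 ± 0.14 in Col (SE, 3.79-fold, adjusted p = 4.55e-07) and 2.03 ± 0.14 in sid2 (4.08-fold, adjusted p = 3.24e-07), and its size in the backgrounds differed by 0.11 (95% interval -0.33 to 0.54).

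MKK5 (AT3G21220) encodes the MAPKK that acts in parallel with MKK4. It was at 11.88, 12.32 and 12.15 in Col mock, 12.40, 12.44 and 12.62 in Col DEX, 11.82, 11.83 and 11.90 in sid2 mock and 12.21, 12.32 and 12.57 in sid2 DEX. The change was 0.37 ± 0.12 in Col (SE, adjusted p = 0.0178), short of the threshold, and the rise in sid2 was 0.51 ± 0.12 (adjusted p = 0.00279).

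The 2 MAPKKs above MPK4 differed in what could be measured. MKK2 (AT4G29810), known also from cold and salt stress, was at 12.00, 11.93 and 11.65 in Col mock, 13.07, 13.05 and 13.09 in Col DEX, 11.76, 11.79 and 11.55 in sid2 mock and 13.04, 13.02 and 13.02 in sid2 DEX. The DEX arrays lay within a few hundredths of each other in each background. MKK2 was higher by 1.21 ± 0.10 in Col (SE, 2.31-fold, adjusted p = 9.68e-07) and by 1.32 ± 0.10 in sid2 (2.5-fold, adjusted p = 5.21e-07).

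MKK1 (AT4G26070), whose array values are given because 1 array decides its change, was at 10.42, 10.59 and 9.90 in Col mock and at 11.08, 9.84 and 11.07 in Col DEX. The sid2 levels were 10.02, 10.56 and 9.74 in mock and 10.35, 9.94 and 10.26 in DEX. The array labelled Col DEX replicate 2 was the lowest of the Col arrays and below all 3 sid2 DEX arrays. With it, the change in Col was 0.36 ± 0.33 (SE, adjusted p = 0.385), and without it 0.81 ± 0.24 (adjusted p = 0.0174), neither past the threshold. In sid2 the change was 0.07 ± 0.33 (adjusted p = 0.869). Without that array, the sid2 effect in DEX (sid2 minus Col) was -0.93 (unadjusted p = 0.00347, adjusted p = 0.342), in place of -0.48 (adjusted p = 0.931) with it.

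MKK6, the MAPKK of cytokinesis, fell, with changes of -0.74 ± 0.11 in Col (SE, adjusted p = 0.000151) and -0.66 ± 0.11 in sid2 (adjusted p = 0.000387). MKK3, the sole member of MAPKK group B, had changes of 0.34 (adjusted p = 0.0454) and 0.26 (adjusted p = 0.115). In group D, MKK8 and MKK10 lay at 3.75 to 4.27 and at 4.55 to 5.01 over the 12 arrays, close to the lower quartile of the arrays, and neither passed the test in either background.

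MKK9 and MKK7, also of group D, showed the widest spread within groups, and their array values were chosen for display after they had been seen. MKK9 (AT1G73500), which can activate MPK3 and MPK6 and is linked to ethylene and camalexin production, was at 9.90, 12.39 and 10.46 in Col mock and at 12.09, 11.86 and 11.73 in Col DEX. In sid2 it was at 9.74, 11.60 and 9.90 in mock and at 12.13, 11.80 and 11.30 in DEX. Mock replicate 2 lay inside or above the DEX range in both backgrounds, about 2 log2 units above the other mock arrays. The changes of 0.98 ± 0.54 in Col (SE, adjusted p = 0.149) and 1.33 ± 0.54 in sid2 (adjusted p = 0.0558) missed the threshold.

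MKK7 (AT1G18350), a MAPKK known from systemic acquired resistance, had the same order of arrays, with 4.93, 6.81 and 5.22 in Col mock and 4.94, 6.43 and 5.02 in sid2 mock. Its DEX levels were 6.01, 5.53 and 5.80 in Col and 5.34, 5.28 and 5.85 in sid2, so that mock replicate 2 exceeded every DEX array. In a fit without replicate 2 of all 4 groups, an alternative added after the data had been seen, MKK9 was called higher in Col (change 1.74, adjusted p = 0.00277) and in sid2 (change 1.89, adjusted p = 0.00187). MKK7 then rose by 0.83 in Col (adjusted p = 0.00959), with a change of 0.61 in sid2 (adjusted p = 0.0336). MKK1 then rose by 0.92 in Col (adjusted p = 0.00398), with a change of 0.43 in sid2 (adjusted p = 0.0862). The same fit also took genes out. In Col, the falls of MPK20 (adjusted p = 0.0122) and YDA (adjusted p = 0.0497) missed the threshold in it. So did the rises of MPK15 (adjusted p = 0.0211) and MAPKKK5 (adjusted p = 0.0186), and YDA missed it in sid2 too (adjusted p = 0.055). Other genes outside the 37 had the same high mock replicate 2, such as ERF104, with 6.75, 10.99 and 7.46 in Col mock and 6.95, 10.46 and 7.14 in sid2 mock.

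**Figure D3:**
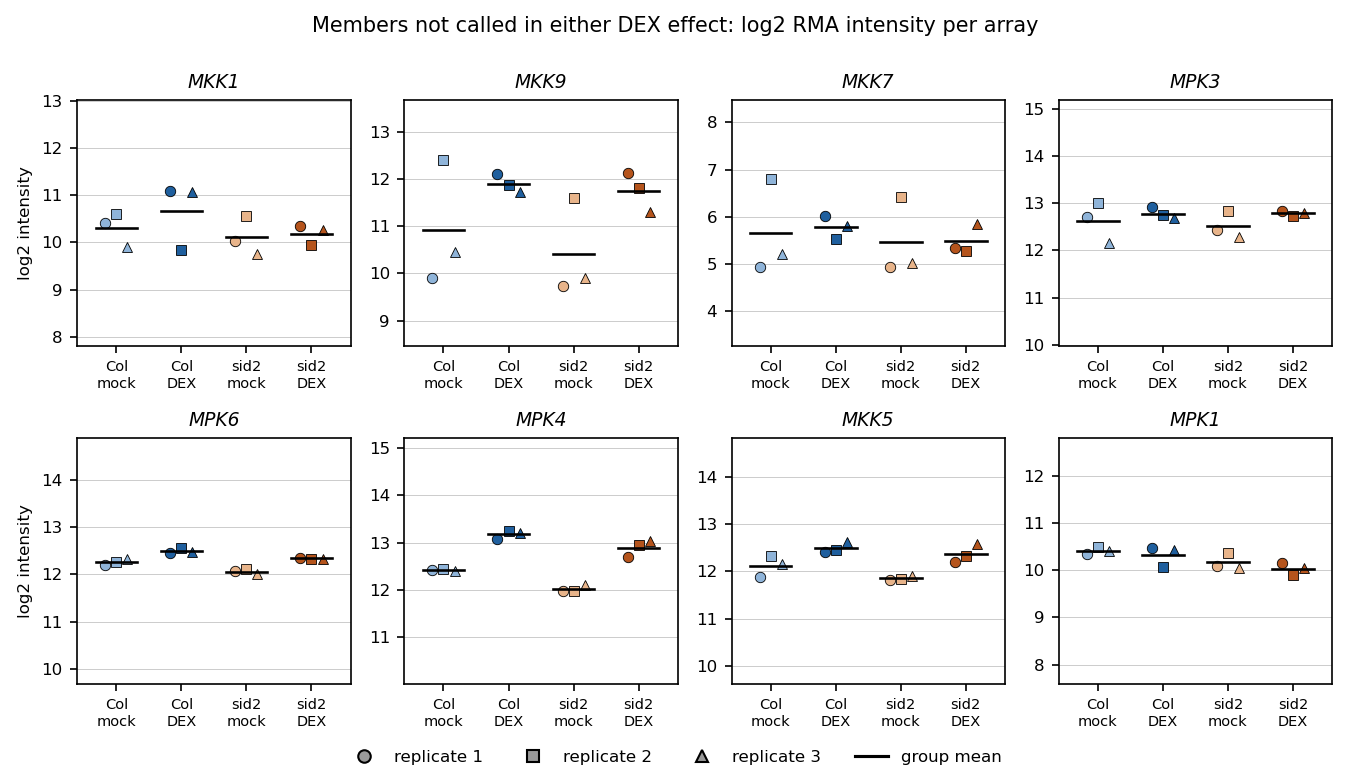
Log2 expression level of MKK1, MKK9, MKK7, MPK3, MPK6, MPK4, MKK5 and MPK1, drawn as in the plot of called genes, with 1 point per array labelled by replicate number and the group mean as a bar. The points of mock replicate 2 stand above the other mock arrays of their background in MKK9 and MKK7 and, by less, in MPK3, MKK1 and MPK1. The array labelled Col DEX replicate 2 stands at 9.84 in MKK1, below the other Col DEX arrays at 11.08 and 11.07.

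Of the 7 MAPKKKs, 5 changed in each background, 3 higher and 2 lower. MEKK1 (AT4G08500), the MAPKKK above MKK1, MKK2 and MPK4, was at 10.98, 11.08 and 11.46 in Col mock, 12.25, 12.34 and 12.44 in Col DEX, 11.23, 11.28 and 11.35 in sid2 mock and 12.23, 12.37 and 12.25 in sid2 DEX. The rise was 1.17 ± 0.11 in Col (SE, 2.25-fold, adjusted p = 3.59e-06) and 0.997 ± 0.110 in sid2 (adjusted p = 1.35e-05), where it was just short of 2-fold and was called without sid2 mock replicate 3 (change 1.004) or sid2 DEX replicates 1 (change 1.001) or 3 (change 1.05), and with the common median (1.10) or array quality weights (1.03). The difference between the backgrounds was -0.17 (95% interval -0.51 to 0.17), so the call in Col alone does not show a different response.

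The 3 ANP genes, which code for MAPKKKs of cytokinesis and oxidative stress, moved in different ways. ANP2 (AT1G54960) was at 8.34, 8.14 and 7.78 in Col mock, 9.79, 10.16 and 9.87 in Col DEX, 8.24, 8.13 and 7.95 in sid2 mock and 9.53, 9.99 and 9.77 in sid2 DEX. Its rise was 1.85 ± 0.16 in Col (SE, 3.61-fold, adjusted p = 1.42e-06) and 1.66 ± 0.16 in sid2 (3.15-fold, adjusted p = 3.69e-06). All 6 same-numbered pairs gave a rise of more than 1 log2 unit.

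ANP3 (AT3G06030) was at 8.97, 8.70 and 9.17 in Col mock, 7.87, 8.07 and 7.55 in Col DEX, 8.80, 8.70 and 8.93 in sid2 mock and 7.79, 7.87 and 7.73 in sid2 DEX. It fell by 1.12 ± 0.15 in Col (SE, 2.17-fold, adjusted p = 6.31e-05) and by 1.01 ± 0.15 in sid2 (2.02-fold, adjusted p = 0.000135), close to the 2-fold limit. Its call was lost without mock or DEX replicate 3, with changes of -0.99 and -0.95 in Col and -0.95 and -0.98 in sid2. In sid2 it was also lost with the arrays scaled to a common median (-0.91), with quantile normalization (-0.90) and with an offset of 16 on the intensities (-0.97). ANP1 overlapped between mock and DEX, with changes of -0.02 ± 0.13 and -0.15 ± 0.13 (adjusted p = 0.918 and 0.379). MAPKKK5, a MAPKKK of the branch to MPK3 and MPK6, rose by 0.46 and 0.50, and YDA fell by 0.38 in each background. MAPKKK3 had changes of 0.29 (adjusted p = 0.0201) and 0.27 (adjusted p = 0.0293), short of the threshold.

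Whether loss of SID2 alters the response was read from the difference between the DEX effects (sid2 minus Col). None of the 37 genes was called, none had an unadjusted p under 0.05 in the limma fit, and the 95% interval of the difference reached at most 2.03 in size, for MKK9. Over all loci 0 were called (0%) and 2.25% had an unadjusted p under 0.05. Without the array labelled Col DEX replicate 2, 0 members were called, beside 0.00919% of all loci. In that fit MKK1 alone had an unadjusted p under 0.05 (difference -0.74, unadjusted p = 0.0465, adjusted p = 1.0). This was 2.70% of the 37 genes, beside 2.92% of all loci. With that array kept, the smallest p among the 37 belonged to MPK11, with a difference of 0.82 ± 0.46 (SE, 95% interval -0.20 to 1.83, unadjusted p = 0.103, adjusted p = 1.0). Leaving out the array labelled Col DEX replicate 2 made this difference 0.53 (95% interval -0.46 to 1.52), and without replicate 2 of all groups it was 0.39. Next came MKK8 with 0.23 (unadjusted p = 0.128), at levels of 3.96, 4.27 and 4.14 in Col mock, 3.81, 3.75 and 3.91 in Col DEX, 4.06, 3.87 and 3.99 in sid2 mock and 3.84, 3.91 and 3.95 in sid2 DEX. MPK5 followed with -0.18 (unadjusted p = 0.263). For the other genes called in both backgrounds, namely MKK4, ANP2, MPK7, MPK12, MPK2, MKK2 and ANP3, the difference lay between -0.20 and 0.11, and the interval was widest for MPK7, from -0.75 to 0.70.

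The backgrounds were also compared within each treatment. In mock, no cascade gene was called between sid2 and Col, beside 0.00306% of all loci, and 5 had an unadjusted p under 0.05 in the limma fit, beside 6.95% of all loci. The ranges of sid2 and Col did not overlap for 5 of the 37 genes, beside 10.2% of all loci. MPK11 was lower in all 3 sid2 mock arrays than in any Col mock array, with 7.57, 8.55 and 7.92 against 9.03, 10.27 and 8.81, and the difference was -1.35 ± 0.32 (SE, 2.56-fold, unadjusted p = 0.00164, adjusted p = 0.53). Over the alternatives the adjusted p ran from 0.238 to 1.0, and without replicate 2 of all groups the difference was -1.17. MPK4 was lower by 0.40 ± 0.10 (unadjusted p = 0.00148, adjusted p = 0.53), with sid2 mock at 11.98, 11.97 and 12.11 and Col mock at 12.42, 12.44 and 12.40. MPK18 was higher by 0.26 ± 0.10 (unadjusted p = 0.0218, adjusted p = 0.676), with 12.39, 12.66 and 12.33 in sid2 mock and 12.25, 12.25 and 12.09 in Col mock. None of these passed the adjustment over all loci.

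In DEX, no cascade gene was called between sid2 and Col, beside 0% of all loci, and 2 had an unadjusted p under 0.05 in the limma fit, beside 5.77% of all loci. The ranges did not overlap for 6 of the 37 genes, beside 10.8% of all loci. Without the array labelled Col DEX replicate 2, again no cascade gene was called, beside 0.116% of all loci, and 4 had an unadjusted p under 0.05 in the limma fit, beside 6.11% of all loci. The ranges were then apart for 12 of the 37 genes, beside 21.2% of all loci. MPK4 was lower in sid2 by 0.29 ± 0.10 (SE, unadjusted p = 0.0124, adjusted p = 0.793). MPK1 was lower by 0.29 ± 0.13 (unadjusted p = 0.0457, adjusted p = 0.856), with 10.14, 9.90 and 10.05 in sid2 DEX and 10.47, 10.07 and 10.43 in Col DEX. Its difference was -0.43 (adjusted p = 0.435) when the array labelled Col DEX replicate 2 was left out, and that of MPK4 was then -0.25 (adjusted p = 0.805). MPK6 was lower by 0.16 ± 0.08 (unadjusted p = 0.0688, adjusted p = 0.87), and by 0.12 without that array (adjusted p = 0.97). For MPK11 the difference was -0.54 ± 0.32 (adjusted p = 0.908), or -0.82 (adjusted p = 0.746) when the array labelled Col DEX replicate 2 was left out. MPK4, MPK6 and MPK11 each lay below Col in all 3 sid2 arrays of both treatments, though no comparison passed the adjusted threshold. The share of all loci that did so in both treatments was not counted, so no result is read from it. In DEX the gap was narrow for MPK4, with 13.04 at most in sid2 and 13.08 at least in Col. For MPK11 these levels were 11.63 and 11.66, the latter from the array labelled Col DEX replicate 2.

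Other genes of the pathway were followed in 3 lists that hold 38 genes. They comprise 15 further MAPKKKs, 9 phosphatases that act on MAPKs and 14 substrates or partners of the kinases. Of the 38, 14 were called with DEX in Col and 14 in sid2, 13 of them in both, and all of these were higher. Beside them, 13.8% and 13% of all loci were called higher. The lists were chosen with earlier results of these data known, so these counts are no test of the pathway against all loci.

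Of the further MAPKKKs, 2 were called higher in Col and 3 in sid2. MAPKKK19 (AT5G67080) was at 4.42 to 5.99 in the mock arrays and at 9.52 to 11.17 in the DEX arrays of both backgrounds, a rise of 5.75 ± 0.40 in Col (SE, adjusted p = 3.32e-07) and 5.88 ± 0.40 in sid2 (adjusted p = 3e-07). Its mock levels reached down to near the lower quartile of the arrays, where no level could be set against background, so the sizes of these rises are uncertain. MAPKKK18 (AT1G05100), a MAPKKK of abscisic acid signaling that acts through MKK3 on group C MAPKs, was at 6.56 to 8.09 in mock and at 11.18 to 11.84 in DEX, with rises of 4.35 ± 0.30 and 4.14 ± 0.30 (adjusted p = 2.88e-07 and 4.53e-07). MAPKKK16 rose as well, with changes of 0.98 and 1.01 at the 2-fold limit. MAPKKK17, the closest relative of MAPKKK18, had changes of -0.23 and -0.59 (adjusted p = 0.72 and 0.337).

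The phosphatases remove phosphate from activated MAPKs. AP2C2 (AT1G07160) was at 4.31 to 5.27 in mock and at 9.57 to 11.35 in DEX, with rises of 5.71 ± 0.35 in Col (SE, adjusted p = 1.24e-07) and 5.83 ± 0.35 in sid2 (adjusted p = 1.16e-07), whose sizes are uncertain for the same reason. AP2C3 (AT2G40180) was at 5.21 to 5.63 in mock and at 8.92 to 10.13 in DEX, with rises of 4.19 ± 0.26 and 4.15 ± 0.26 (adjusted p = 1.31e-07 and 1.55e-07). Its mock levels were low too, so the sizes of its rises are also uncertain. AP2C4 rose by 1.44 and 1.68, and MKP1, which acts on MPK6, by 1.10 in Col and 0.99 in sid2. AP2C1, a phosphatase of MPK4 and MPK6, had changes of 1.20 (adjusted p = 0.0767) and 1.60 (adjusted p = 0.0235), and its mock replicate 2 was high in each background, at 12.48 in Col and 11.33 in sid2.

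Among the substrates and partners, 8 of 14 were called higher in each background. SPCH (AT5G53210), a transcription factor of the stomatal lineage that MPK3 and MPK6 phosphorylate, was at 5.12 to 6.80 in mock and at 11.35 to 12.34 in DEX, with rises of 5.56 ± 0.40 in Col (SE, adjusted p = 4.17e-07) and 6.02 ± 0.40 in sid2 (adjusted p = 2.43e-07). ACS2 (AT1G01480), an ethylene synthesis enzyme and substrate of MPK6, was at 4.82 to 5.36 in mock and at 10.33 to 10.74 in DEX, with rises of 5.54 ± 0.15 and 5.31 ± 0.15 (adjusted p = 5.16e-10 and 7.51e-10). ACS6, the second such enzyme, rose by 2.24 and 2.56. Mock replicate 2 of ACS6 was at 12.88 in Col and 12.20 in sid2, above the other mock arrays. The mock levels of SPCH and ACS2 were low, so the sizes of their rises are uncertain, as for MAPKKK19. SUMM2, an immune receptor that senses loss of the MEKK1 to MPK4 branch, was the single gene of the 38 that fell, by 0.64 and 0.72.

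**Figure D4:**
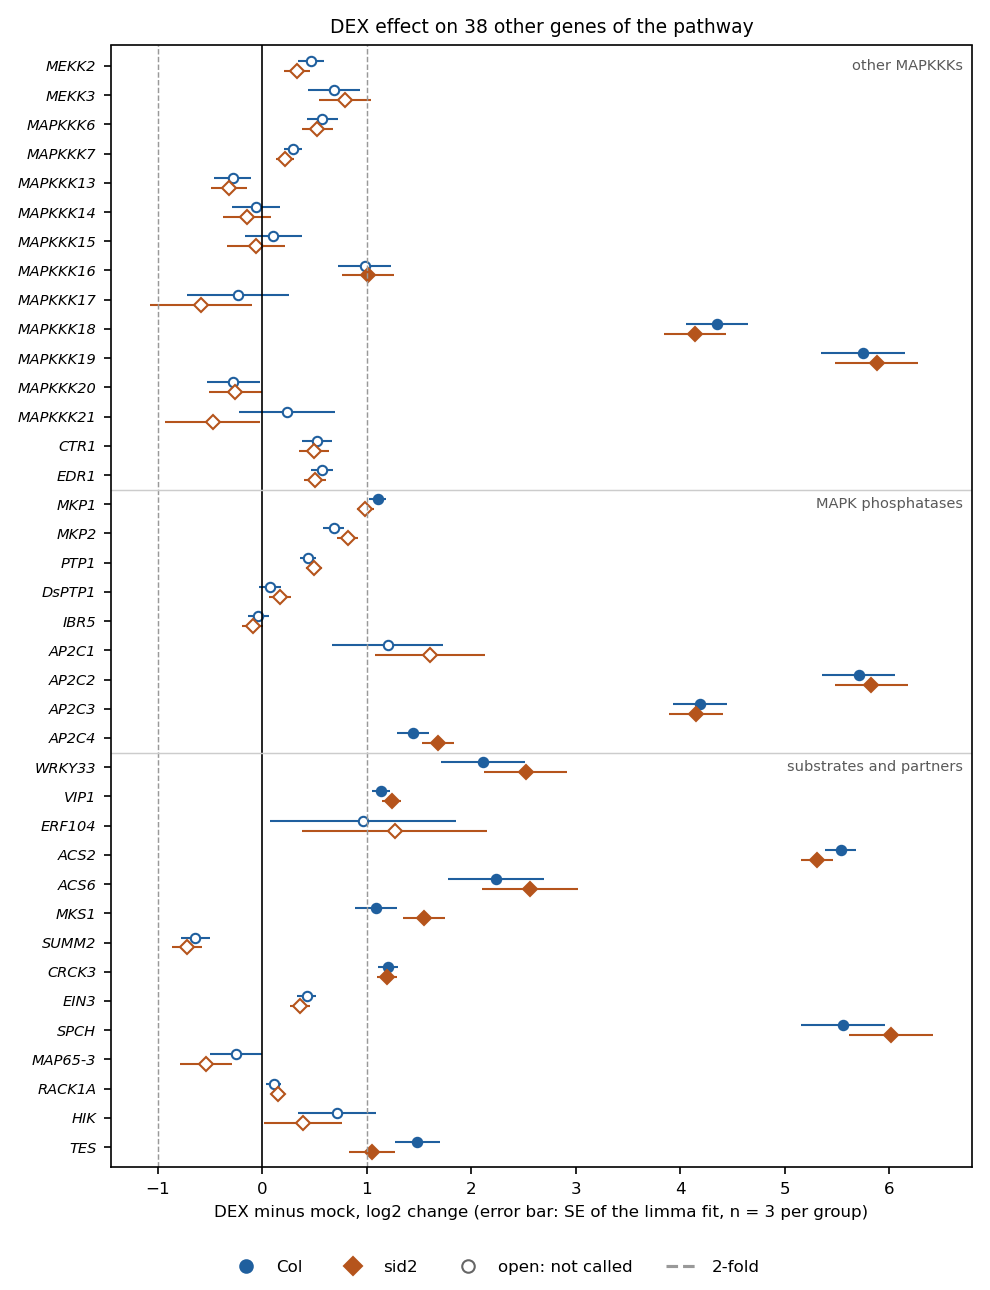
Change with DEX (DEX minus mock, log2) of the 38 other pathway genes in Col and in sid2, grouped as further MAPKKKs, MAPK phosphatases, and substrates and partners, with error bars of 1 SE from the limma fit and n = 3 arrays per group. Filled points are called and dashed lines mark 2-fold, and MAPKKK19, AP2C2, SPCH and ACS2 lie beyond 5 in both backgrounds.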

How the data were processed

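Total RNA of 12 leaf samples was hybridised to 12 NimbleGen arrays designed on the TAIR9 gene models. For each transcript the authors combined the probe signals with NimbleGen's implementation of RMA (robust multi-array average), and of several transcripts of a gene they kept the one of higher value. The deposited values were intensities on a linear scale for 32627 loci, with 0 missing. The sources used here do not give the software version or which arrays were normalized together. RMA makes array distributions nearly alike, so a change in total RNA does not show, and without probe or background values no level could be set against background. The number of arrays limits the precision.

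Intensities were converted to log2 and fitted in R 4.3.3 with limma 3.58.1 (functions lmFit and eBayes) to all 12 arrays in 4 groups, with the replicate as a random block (duplicateCorrelation, consensus correlation 0.208), after the methods of the study, and p-values were adjusted over all loci by Benjamini and Hochberg. The methods describe 3 independent experiments, so arrays of the same number were treated as paired. Deviations from the group means of same-numbered arrays correlated at only 0.100 to 0.303 between mock and DEX. Between sid2 and Col within a treatment they correlated at 0.387 to 0.733, and the fit used the same consensus correlation for both. Contrasts were DEX minus mock in each background, the difference of these (sid2 minus Col) and sid2 minus Col within each treatment.

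Names of all 37 members and 38 other pathway genes were found in a RefSeq table of assembly TAIR10.1, used for names alone. The members, the lists and the settings were chosen with earlier results of these data known. Values per array are given for members called with DEX, for MPK3, MPK4, MPK6, MKK4 and MKK5, and for the 3 members of smallest p in every other contrast. For up to 3 genes a list, those with the largest mean change, ranges over the arrays or changes alone are given. MKK1, MKK7 and MKK9 were added after their values had been seen, as were MAPKKK17, AP2C1, MKP1, SUMM2 and ERF104. The fit was also run on simulated data with normally distributed noise and few changed loci. The simulation held neither a high mock replicate 2 nor an array like that labelled Col DEX replicate 2. It therefore does not show how the fit behaves with these. Alternatives were the replicate term, scaling, an offset of 16, a filter on dim loci, the variance model, array weights, fewer groups, both limits and leaving out each array.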

Additional observations from a re-analysis of the deposited data

How the results depend on the processing

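The counts of called cascade genes varied little except with the fold limit. Leaving out each of the 12 arrays in turn gave 9 to 11 in Col, 8 to 9 in sid2 and 0 in the other contrasts. Testing against the 2-fold limit itself (limma treat) left 3 in Col and 3 in sid2, and a 4-fold limit left 1 and 2. Of the other pathway genes, treat left 6 and 8 and the 4-fold limit 8 in each background, and leaving out arrays gave 13 to 15 and 12 to 16. The shares of all loci under treat and the 4-fold limit are not given here. Whether the drop in these counts differs from that of the whole array therefore stays unknown. Without the replicate block, and with the replicate block as a fixed term, 10 and 8 cascade genes were called, and 18 and 19 or 20 and 20 changed. Apart from these limits, a call with DEX changed under at least 1 alternative for MPK5, MPK9 and MPK13 in Col, MEKK1 in sid2, and ANP3 and MKK9 in both. Shifting the arrays to a common median moved the medians, and the median change of all loci was 0.15 in Col and 0.14 in sid2 in place of 0.04. No called gene reversed its direction. Directions reversed for 9 genes, each in a background where its change was at most 0.23 in size. With the common median, the change in Col was 0.023 for MPK1, 0.017 for MPK17 and 0.088 for ANP1, and in sid2 it was 0.030 for MKK8 and 0.096 for MKK10. Quantile normalization gave 0.079 for ANP1 in Col and 0.0059 for MKK10 in sid2, array weights gave 0.051 for MKK10 in sid2, and the offset gave -0.0061 for MKK7 in sid2. Without replicate 2 of all groups, MPK1 was at 0.079 in Col and 0.034 in sid2, and MKK10 at -0.14 in Col. Leaving out single arrays gave, in Col, -0.16 to 0.053 for MPK1, -0.048 to 0.33 for MPK3, -0.20 to 0.67 for MKK7, -0.13 to 0.13 for MKK10 and -0.12 to 0.071 for ANP1. In sid2 it gave -0.11 to 0.36 for MKK1, -0.23 to 0.46 for MKK7, -0.092 to 0.088 for MKK10 and -0.010 to 0.48 for MPK14. The cause was not tested.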
